A study of Mus musculus with 169 samples.

Results

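Microglia sorted from 16-month-old mice that lack progranulin (Grn-/-, KO) were compared with microglia of wild-type mice of the same age (Grn+/+, WT). The comparison rests on 8 of the 169 arrays of the series, 4 KO and 4 WT, taken by the tissue, genotype and age that the labels give. Per the labels, all of these mice were on a C57B/6J background, no group received an agent, and cells from Percoll gradients were sorted with antibodies to CD11b, CD45 and Ly6G. The labels give neither the sex of the animals nor whether an array held 1 animal or a pool. The p-values therefore measure the spread between samples, pooled over the microglia arrays of both ages. The other arrays of the series measured microglia at 4 months (4 WT and 3 KO arrays, used here to estimate the spread and to set the ages side by side) and brain regions, which were not used here. The comparison addresses how the expression profile of microglia in old mice differs when progranulin is missing.

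Progranulin, the product of Grn, is a secreted glycoprotein that is also carried to lysosomes, where it is cut into granulins. Microglia are the resident macrophages of the brain and make much of its progranulin. They keep their identity through signals such as CSF1 and TGF-beta, survey the tissue through purinergic and fractalkine receptors, and change their lipid, lysosomal and immune programs when they take up debris. Loss of progranulin function in people causes frontotemporal dementia or, when both copies are affected, a lysosomal storage disease of neurons.

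A level here is the log2 of a probe's processed signal over the 75th percentile of its array. A level of 0 is therefore that percentile. Levels of different probes were used to pick and describe the brighter probe of a gene, and in medians and sums over list members. They were not read as differences in expression between genes. The floor of -4.94 was that of KO array 2, the array whose lowest signal well above background was highest. Signals under it were set to it, also where they were well above background on another array. WT arrays 1 and 2 agreed far more closely than other arrays of a group, and so did WT arrays 3 and 4. The log2 differences within these pairs had a scaled median absolute deviation of 0.124 and 0.095, against 0.871 to 0.919 between the pairs and 0.566 to 1.28 between KO arrays. Each pair was averaged, which left 2 WT and 4 KO replicates. Every difference is KO minus WT with its standard error (SE), from limma's moderated test over 31927 features and 13 replicates of both ages, adjusted after Benjamini and Hochberg.

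The 75th percentile of the signal was 1010 to 1511 on the WT arrays and 507 to 1037 on the KO arrays, and 64.6 to 69.8% and 54.2 to 62.7% of the probes were well above background. KO array 2 was the dimmest. Along the first principal component (62.0% of the variance) the 4 KO replicates lay at 213.2 to 261.0, the 2 WT replicates at -10.3 and -65.9, and the 7 replicates of 4 months at -156.3 to -90.8. All 8 arrays shared 1 slide, where genotype and position cannot be told apart. The part of the lower signal of the KO arrays in the results was not tested.

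Grn itself was checked first. It stood at 4.61, 4.61, 5.42 and 5.51 on the WT arrays and at the floor of -4.94, not well above background, on all 4 KO arrays. Its level was thus at least 1011-fold lower in KO than in WT, a bound set by the floor (adjusted p = 3.73e-07). The bounds of other genes that were not well above background in a group are likewise against the higher of that group's level and the floor. The 8 genotype labels therefore matched the targeted gene.

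Sex-linked transcripts, read after their values were seen, did not run alike on the KO arrays. The Y-linked genes Ddx3y and Eif2s3y were above background on all WT arrays and on KO arrays 1, 2 and 4, whereas KO array 3 had both at the floor and Xist at 0.46. The probe of a further Y-linked gene, Kdm5d, did not follow them: it was at 1.78, 1.36, -0.53 and -0.34 in WT and at -4.61 or the floor on all 4 KO arrays (-5.43, adjusted p = 6.39e-05). On 4-month WT arrays 1 and 2, where Ddx3y and Eif2s3y were at the floor, it stood at 0.07 and 0.31. Without KO replicate 3, 5272 features were higher and 4545 lower in KO.

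The markers of the sort were present in both groups. Itgam, which encodes CD11b, lay at 5.30, 5.23, 6.21 and 6.37 on the WT arrays and at 3.87, 3.08, 3.32 and 4.95 on the KO arrays. Every KO value was below every WT value, and Itgam fell by 1.97 (SE 0.47, adjusted p = 0.00893), a call that ended when only the 16-month arrays were fitted and when WT replicate 3 and 4 was left out. Ptprc, which encodes CD45, overlapped between the groups and differed by -0.54 (SE 0.77, adjusted p = 0.638). Ly6g, the neutrophil antigen of the sort, did not pass the filter on dim probes.

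Transcripts of the choroid plexus, the epithelium that secretes cerebrospinal fluid, moved with genotype and also separated the 2 WT samples. The median level of 12 markers was 5.93, 5.91, 3.62 and 3.68 on the WT arrays and 7.69, 7.78, 7.28 and 6.82 on the KO arrays. All 12 differences were positive, and 7 passed: Cldn2 (3.39), Kcnj13 (3.19), Sostdc1 (2.90), Folr1 (2.67), F5 (2.60), Kl (2.42) and Slc4a5 (1.84). That count was 2 with quantile normalization, 3 with the 75th percentile taken over probes detected on all 15 arrays, 1 without WT replicate 3 and 4, and 2 without KO replicate 1. The part of this marker signal in the differences described here was not tested.

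Across all features, 10958 of 31927 passed at an adjusted p of 0.05 (34.3%), with 6166 higher in KO (19.3%) and 4792 lower (15.0%). Among the 17798 genes with a symbol, 21.2% were higher and 14.5% lower, and the median difference was 0.20. A difference of more than 2 on the log2 scale was reached by 2357 of the rises and 3471 of the falls. WT and KO replicates did not overlap for 13450 features (42.1%). Fitting only the 16-month arrays called 3425 (10.7%), and most lists below had fewer calls in it. Each result was also recomputed under 14 alternatives of processing and of samples left out. Passing all of those that tested a feature, with 1 direction throughout, is called here passing under every alternative; 2590 features did so (8.11%), 1391 higher (4.36%) and 1199 lower (3.76%), and 5.2% and 3.29% of the genes with a symbol. The share of calls that were higher was 56.3%, and the median difference of all features was 0.12. With the 75th percentile taken over detected probes, this share was 44.3% and the median of all features 0.00. For the subset of probes above background on every one of the 8 arrays, with unchanged levels, the share was 66.5% and the subset's median 0.54. Genes named to complete a short count, outside the rule for named genes, were chosen after their values were seen.

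**Figure D1:**
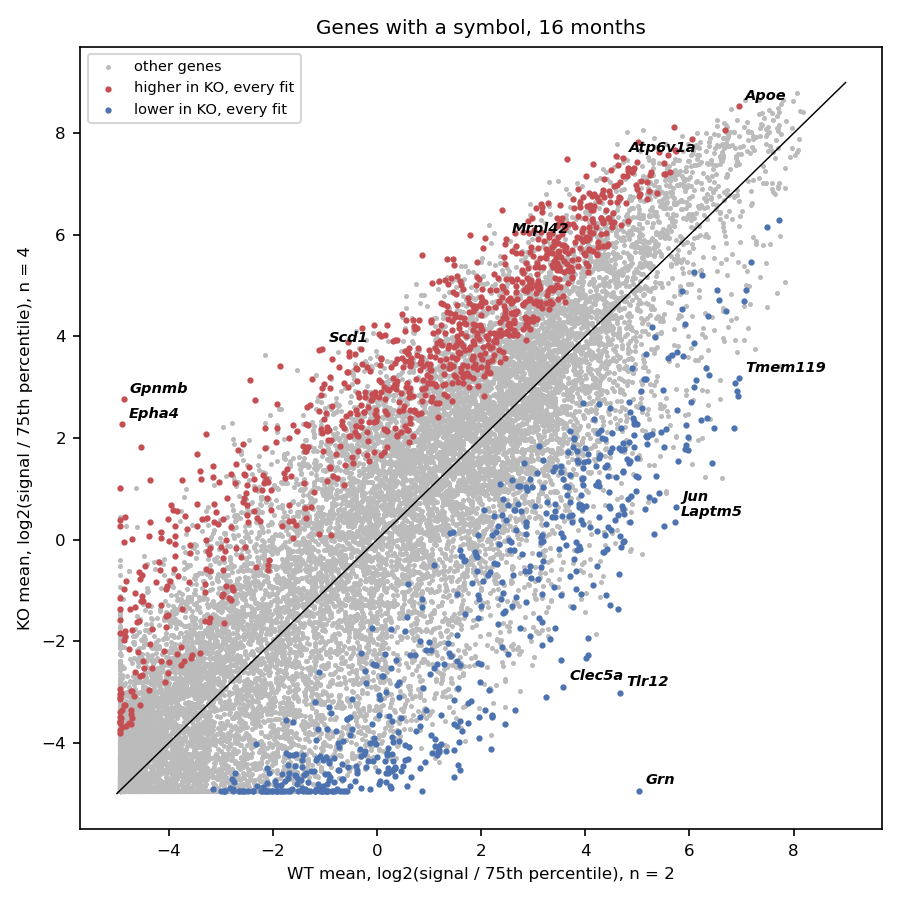
Mean level of each gene with a symbol in WT (horizontal, n = 2) and KO microglia (vertical, n = 4) at 16 months, as log2 of signal relative to the 75th percentile, with the line of equality. Colored points passed under every alternative; they lie on both sides of the line, with Gpnmb and Epha4 rising from the WT floor and Grn falling to the KO floor.

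Several of the largest rises were of genes near the floor in WT. Gpnmb, a glycoprotein of lipid-laden phagocytes, was at the floor on 3 WT arrays and at -4.66 on the other, and stood at 1.47, 3.35, 4.68 and 1.60 on the KO arrays. It rose by 7.65 (SE 1.07, adjusted p = 0.000607). The ephrin receptor Epha4 went from -4.94 to -4.82 on the WT arrays to 3.44, 0.72, 1.68 and 3.25 on the KO arrays, a rise of 7.17 (SE 0.69). KO array 2 was its lowest and still lay far above every WT array. Cdo1, the enzyme that starts cysteine breakdown, held 1.41, 1.69, 1.42 and 2.76 on the KO arrays against at most -3.97 in WT, and rose by 6.36 (SE 0.50, adjusted p = 4.93e-05).

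Other large rises included Ddit4l, an inhibitor of mTOR signalling (5.37), Itgb8, the integrin subunit that frees latent TGF-beta (5.33), and Ackr3, a scavenging chemokine receptor (5.28). Itgb8 and Lin7b lay at the floor on all 4 WT arrays, so their differences are lower limits. Rassf9 (5.53), Lin7b (5.21), Cthrc1 (5.10), Traf3ip2 (4.92) and Pawr (4.85) had adjusted p-values from 0.00011 to 0.0012. Tcerg1l and Cldn20 were not well above background on any WT array and were at least 61.8-fold and 39.0-fold higher in KO. The 2 WT samples were not alike for several of these genes: Cthrc1 was -0.63 and -0.65 on WT arrays 1 and 2 but -4.28 and -3.81 on arrays 3 and 4, and Pawr was 0.08 and 0.12 against -2.30 and -2.38. The KO values of both genes nevertheless lay above all 4 WT arrays.

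Grn headed the 14 largest falls under every alternative. Tlr12, a Toll-like receptor for profilin, was 4.06, 4.00, 5.29 and 5.36 in WT and -4.32, -4.94, -0.71 and -2.08 in KO. The 4 KO arrays spread widely but all lay below WT, and Tlr12 fell by 7.69 (SE 0.96, adjusted p = 0.00034). Sema4d, a semaphorin of immune cells, fell by 6.35 (SE 0.72), Icosl, the ligand of the T cell costimulator ICOS, by 6.32 (SE 0.69), and Tnfrsf17, a receptor for the B cell factor BAFF, by 6.07 (SE 0.76). Mdfi (-6.34), Soga1 (-6.00), Dennd1c (-5.91) and Gimap6 (-5.87) fell with adjusted p-values from 3.89e-05 to 0.00054. Apba1 and Kcnq1ot1, a long non-coding RNA of an imprinted locus, were not well above background on any KO array and were at least 71.2-fold and 55.7-fold lower.

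Part of the largest falls had the order of the 2 WT samples turned. Clec5a, an activating receptor of myeloid cells, was 4.75 and 4.37 on WT arrays 1 and 2 but 2.55 and 2.61 on arrays 3 and 4, and -1.60, -3.40, -3.37 and -3.22 in KO, a fall of 6.46 (SE 0.60). Cass4, a docking protein of focal adhesions, was 5.11, 4.77, 3.05 and 3.25 in WT and -0.83, -2.48, -3.41 and -2.39 in KO, and fell by 6.32 (SE 0.64). Vmn2r65, named as a vomeronasal receptor, was 5.10, 4.69, 3.12 and 3.30 in WT and -0.91, -1.92, -2.89 and -2.05 in KO, and fell by 5.99 (SE 0.55). All 3 genes were higher on WT arrays 1 and 2 than on arrays 3 and 4.

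**Figure D2:**
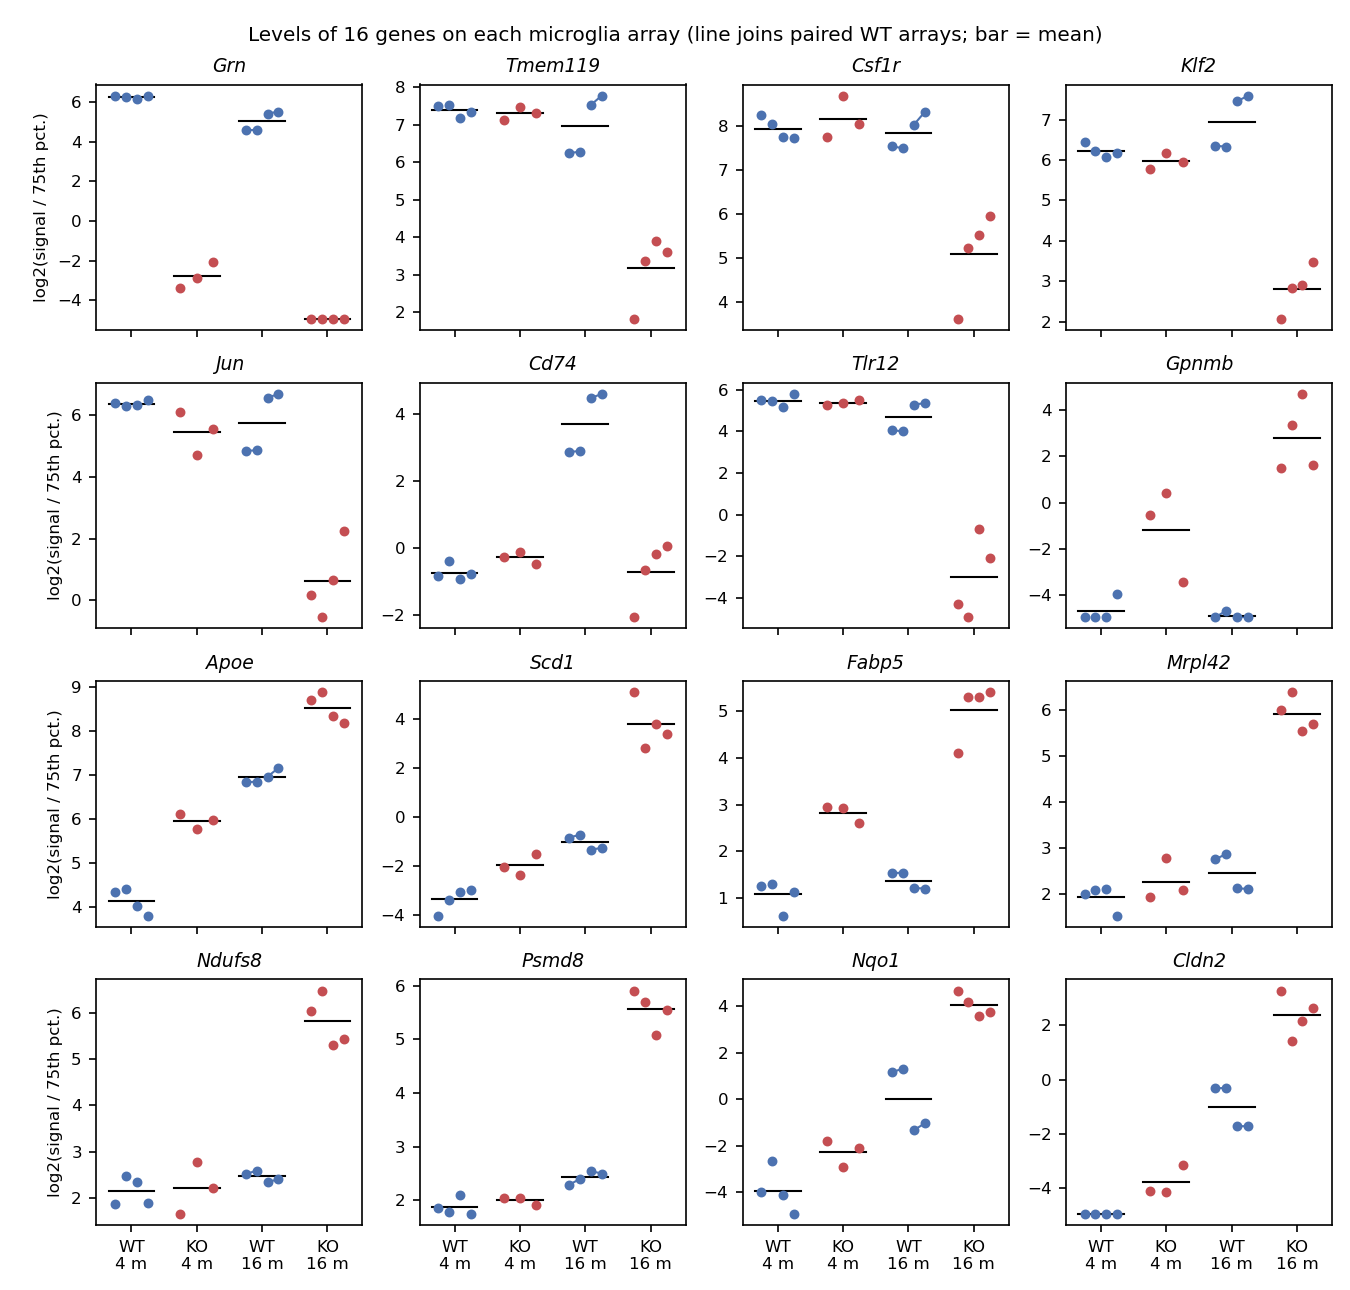
Levels of 16 genes on each of the 15 microglia arrays (log2 of signal relative to the 75th percentile), WT in blue and KO in red, with the mean of the replicates as a bar and lines that join the averaged WT pairs. At 16 months the 4 KO arrays of each gene lie apart from all WT arrays, below them for Grn, Tmem119, Csf1r, Klf2, Jun, Cd74 and Tlr12 and above them for the other genes.

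Genes that mark resting microglia were lower in KO. Of 17 tested, 14 fell and 0 rose, with a median difference of -3.29 against 0.20 for all genes with a symbol, and 3 fell under every alternative (Selplg, Tmem119 and Siglech). Fewer microglia among the sorted cells and less RNA per microglial cell cannot be told apart in these arrays. Tmem119, a surface protein of microglia, was 6.24, 6.28, 7.52 and 7.77 on the WT arrays and 1.83, 3.37, 3.91 and 3.62 on the KO arrays. It fell by 3.77 (SE 0.53, adjusted p = 0.000614). Selplg, a ligand of selectins, went from 5.60, 5.54, 7.24 and 7.33 to -0.14, 1.25, 2.37 and 2.53 and fell by 4.93 (SE 0.68). Siglech, a sialic acid-binding lectin, was 7.02 to 7.41 in WT and 4.91 to 5.77 in KO, and fell by 1.71 (SE 0.26).

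Receptors of the same list fell with more spread. Csf1r, the receptor for the survival signal CSF1, was 7.54, 7.49, 8.03 and 8.32 in WT and 3.61, 5.22, 5.53 and 5.96 in KO, a fall of 2.77 (SE 0.55, adjusted p = 0.00364). The fractalkine receptor Cx3cr1 fell by 4.32 (SE 0.81), from 7.46 to 8.09 in WT to 1.84, 2.18, 4.23 and 5.39 in KO. The fructose transporter Slc2a5 fell by 5.42 (SE 1.20), with KO array 1 at the floor. KO arrays 1 and 2 were the lowest for most of these genes: the list's median level was 1.84 and 2.18 on them and 3.98 and 4.59 on KO arrays 3 and 4, against 5.61, 5.64, 7.02 and 7.23 in WT. Without WT replicate 3 and 4, whose levels were the higher, 6 of the 17 fell, and when only the 16-month arrays were fitted 3 did. Csf1r, Cx3cr1 and Slc2a5 were not among these last 3. Members that did not pass included the cystatin Cst3 (0.24) and Ltc4s (-0.53).

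Transcription factors that set and hold microglial identity showed the same side. Of 19 tested, 14 fell and 1 rose, with a median of -2.72, and 2 fell under every alternative. Klf2, a zinc-finger factor of quiescent leukocytes, was 6.35, 6.33, 7.45 and 7.59 in WT and 2.07, 2.84, 2.90 and 3.47 in KO. No KO array came within 2 of the lowest WT array, and Klf2 fell by 4.11 (SE 0.38, adjusted p = 9.96e-05). Cebpb, a factor of the myeloid response, fell by 3.09 (SE 0.48), from 5.94 to 6.22 in WT to 1.96, 4.11, 3.21 and 2.76 in KO. Ikzf1 (-4.84, SE 1.05) and Tal1 (-4.67, SE 1.02) had 1 KO array at the floor, and a second, dimmer probe of Ikzf1 differed by 0.70 (adjusted p = 0.63). Sall1, which represses other macrophage fates in microglia, fell by 3.87 (SE 0.84), and Bhlhe40 was the gene that rose (2.15). Without WT replicate 3 and 4, 8 of the 19 fell, and 2 did when only the 16-month arrays were fitted.

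Microglia depend on TGF-beta, and 8 of 22 genes of this pathway fell while 2 rose. These shares were 36.4% and 9.09%, against 14.5% and 21.2% of all genes with a symbol. Tgfbr1, a signalling receptor chain, was 7.12 to 8.01 in WT and 4.19, 3.09, 5.33 and 5.74 in KO, and fell by 2.91 (SE 0.61). Nrros, which holds latent TGF-beta on microglia, fell by 3.38 (SE 0.58), and the coreceptor Eng by 3.69 (SE 0.66). All 3 calls ended when only the 16-month arrays were fitted. The rises were the integrin subunit Itgb8, at the floor on all 4 WT arrays and at 1.17, -0.67, -0.80 and 1.83 in KO, and the ligand Tgfb2 (2.71). Itgb8 was the only member called under every alternative, and the median of the list was -0.40.

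Purinergic receptors, with which microglia sense nucleotides, fell in 9 of 15 genes and rose in 2, with a median of -2.23 and 0 calls under every alternative. The adenosine receptor Adora3 went from 3.90, 4.03, 4.41 and 4.50 to -4.94, -1.56, -0.86 and -0.07 and fell by 6.07 (SE 1.01). P2ry6, the UDP receptor that prompts engulfment, fell by 3.57 (SE 0.59), and P2ry12, the ADP receptor of process movement, by 3.12 (SE 0.99, adjusted p = 0.0323). P2ry12 lost its call under 5 alternatives. The genes that rose were Adora2b (3.71, SE 0.76) and Nt5e, the ectoenzyme that makes adenosine (3.71, SE 0.78). Nt5e stood at 0.46 and 0.41 on WT arrays 1 and 2 and at -3.26 and -3.31 on arrays 3 and 4, below all KO arrays at 1.66 to 2.83. Without WT replicate 3 and 4, 1 purinergic gene rose and 3 fell; with a replicate block 5 fell.

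**Figure D3:**
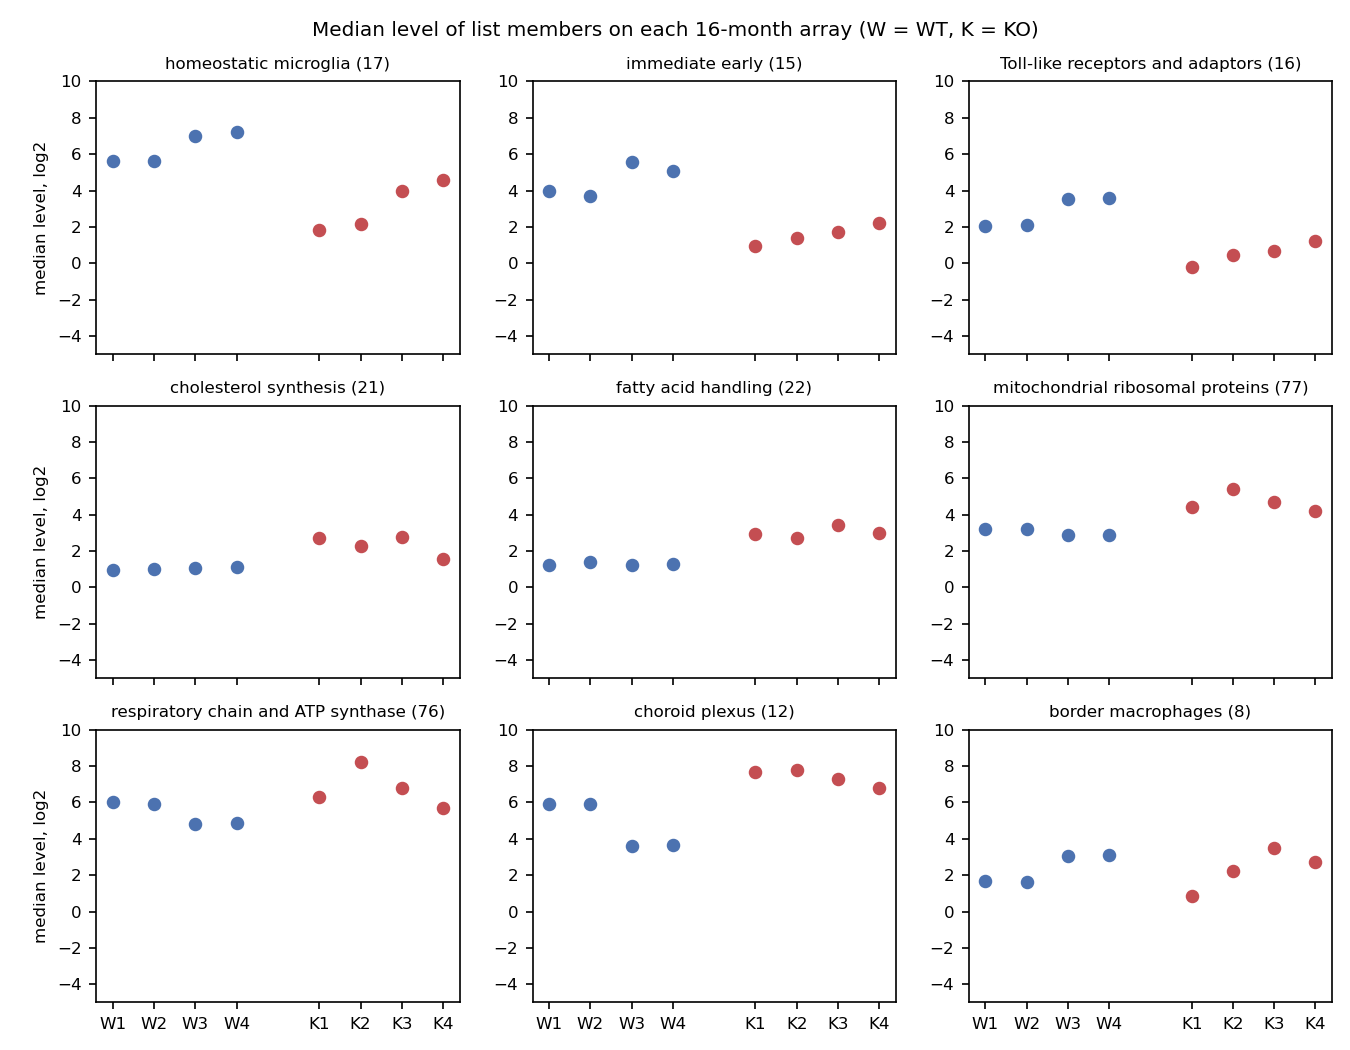
Median level of the tested members of 9 gene lists on each 16-month array (log2 of signal relative to the 75th percentile; W1 to W4 are WT and K1 to K4 are KO arrays, with the number of members in parentheses). The homeostatic, immediate early and Toll-like receptor medians are lower on all KO arrays, cholesterol, fatty acid and mitochondrial ribosomal medians are higher on all of them, and the choroid plexus panel shows the same kind of step and a gap between the WT pairs.

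Pattern recognition receptors were lower in KO. Of 16 Toll-like receptors and their adaptors, 11 fell and 0 rose, with a median of -2.00. Tlr12 and Unc93b1, the chaperone that brings nucleic acid-sensing receptors to endosomes, fell under every alternative; Unc93b1 was 3.68, 3.74, 5.11 and 5.30 in WT and -0.57, 0.83, 1.18 and 1.21 in KO (-3.79, SE 0.54). Tlr4, the receptor for lipopolysaccharide, fell by 2.81 (SE 0.67) and Tlr6 by 4.69 (SE 1.01), while Tlr2 (-1.05), Tlr3 (-0.31) and Tlr9 (0.15) did not pass. Without WT replicate 3 and 4, 2 of the 16 fell, and without KO replicate 1, 7 did.

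Among 18 lectin, Fc and inhibitory receptors of myeloid cells, 10 fell and 0 rose, with a median of -2.26. Clec5a, Cd300lf, a receptor for lipids of dying cells (-4.51, SE 0.58), and Clec4a1 (-2.34, SE 0.35) fell under every alternative. Clec4a1 was 0.21, 0.43, 0.75 and 0.76 on the WT arrays and -2.57, -1.26, -1.52 and -1.87 on the KO arrays, so all KO values were below all WT values. Clec4a2 fell by 5.26 (SE 1.11), but WT arrays 3 and 4, close for most probes, had it at 3.89 and -1.73, and the latter lay below KO array 1 at -0.17. The activating Fc receptor Fcgr1 fell by 4.49, and Fcgr3 (-1.16), Fcgr2b (-1.23) and the lectins Clec4d (1.38), Clec4n (0.91) and Clec4e (0.58) did not pass. When WT replicate 3 and 4 was dropped, 6 of the 18 fell.

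Immediate early genes, which answer stimulation within minutes, fell in 11 of 15 and rose in 0, with a median of -3.28. Jun, Fosb, Zfp36, Btg2 and Jund fell under every alternative, which is 5 of 15 against 3.29% of all genes with a symbol. Jun, a subunit of the factor AP-1, was 4.85, 4.86, 6.57 and 6.69 in WT and 0.18, -0.55, 0.67 and 2.24 in KO. It fell by 5.11 (SE 0.71, adjusted p = 0.000573). Fosb, a partner of Jun, was 5.32, 5.44, 7.52 and 7.65 against 1.48, 2.64, 1.95 and 2.71, and fell by 4.29 (SE 0.52). Zfp36, which brings about decay of cytokine transcripts, fell by 4.27 (SE 0.61), the antiproliferative Btg2 by 4.21 (SE 0.45) and Jund by 4.02. Ier2 (-3.28), Atf3 (-2.00), Ier5 (-0.98) and Egr3 (0.33) did not pass. WT arrays 3 and 4 were higher than 1 and 2 for most of these genes, with list medians of 5.58 and 5.05 against 3.98 and 3.67; the KO medians were 0.93 to 2.20.

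Cytokine and NF-kB genes had 7 falls and 0 rises among 19, all 19 differences were negative, and the median was -2.10. Nfkbia, the inhibitor that NF-kB itself induces, was 6.59, 6.55, 7.40 and 7.63 in WT and 3.99, 4.88, 4.65 and 5.30 in KO. It fell by 2.34 (SE 0.36, adjusted p = 0.00105) and was the only member to do so under every alternative. Il6 fell by 5.76 (SE 1.20), with KO arrays 1 and 2 at the floor, Il1b by 3.24 (SE 0.73) and the inhibitor Nfkbie by 3.70 (SE 0.69). Tnf (-2.10), Il1a (-2.73) and the inflammasome sensor Nlrp3 (-0.75) did not pass. With WT replicate 3 and 4 left out, 2 of the 19 fell, and without KO replicate 4, 12 did.

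Chemokines and their receptors fell in 10 of 18 and rose in 0, with a median of -2.27, and none passed under every alternative. All 18 differences were negative. Ccl12 was 4.91, 5.01, 6.13 and 6.31 in WT and 0.61, 3.04, 2.56 and 3.50 in KO, a fall of 3.16 (SE 0.68). Ccrl2, a receptor that presents chemerin, fell by 3.36 (SE 0.80), and Cxcl10, an interferon-induced attractant of T cells, by 3.12 (SE 0.87). The replicates of Cxcl10 overlapped: KO array 4 was at 1.23 and WT arrays 1 and 2 at 1.15 and 1.19. If WT replicate 3 and 4 was omitted, 3 of the 18 fell, and 0 did when only the 16-month arrays were fitted.

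Antigen presentation genes fell in 9 of 18 and rose in 0, with a median of -1.62. Cd74, the invariant chain of class II molecules, was 2.86, 2.89, 4.47 and 4.59 in WT and -2.07, -0.66, -0.18 and 0.05 in KO (-4.41, SE 0.57, adjusted p = 0.000405). Ciita, the transactivator of class II genes, fell by 4.05 (SE 0.47), and H2-DMb1, which loads peptides onto class II, by 1.95 (SE 0.23), both under every alternative as for Cd74. The costimulator Cd86 fell by 3.77 (SE 0.81). The class I genes H2-K1 (-0.59), H2-D1 (-0.72) and B2m (0.19) did not pass. When WT replicate 3 and 4 was dropped, and also without KO replicate 1, 4 of the 18 fell.

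Type I interferon response genes went both ways, with 3 rises (15.8%) and 4 falls (21.1%) among 19 and a median of -1.06. Of all genes with a symbol, 21.2% rose and 14.5% fell. Isg15, a ubiquitin-like modifier, was 1.64, 1.83, 2.76 and 2.74 in WT and -0.15, -1.22, -0.63 and 0.19 in KO (-2.69, SE 0.42). Bst2, which tethers budding virions, was 3.33, 3.50, 3.55 and 3.67 against 5.13, 5.85, 5.14 and 5.10 (1.80, SE 0.24). These opposite calls both held under every alternative. The other rises were Ifi35 (1.45) and Ifih1 (0.98), and the other falls were Oasl2 (-4.04), Rsad2 (-2.55) and Usp18 (-1.79). With WT replicate 3 and 4 left out, 3 rose and 1 fell, and without WT replicate 1 and 2, 1 rose and 5 fell.

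Complement, which the title of the study names, held 3 rises (15.0%) and 3 falls (15.0%) among 20 genes, with a median of -0.81. Of all genes with a symbol, 21.2% rose and 14.5% fell. Of the C1q chains, C1qc was 7.35, 7.29, 7.93 and 8.20 in WT and 3.35, 4.76, 5.70 and 5.63 in KO and fell by 2.83 (SE 0.56, adjusted p = 0.00359; it did not pass when only the 16-month arrays were fitted). C1qa and C1qb overlapped between the groups, with differences of -0.86 (SE 0.70) and -0.97 (SE 0.65); C1qb passed with a replicate block (adjusted p = 0.0419). C3, the central component, was 1.28 to 1.96 in WT and 1.04, 0.65, 0.96 and -0.13 in KO; the groups did not overlap, but the difference of -0.98 (SE 0.38, adjusted p = 0.0724) did not pass. It did with quantile normalization (adjusted p = 0.0407) and with the 75th percentile over detected probes (adjusted p = 0.0244). The receptor chains Itgax (-2.81, SE 0.46) and Itgam fell. The inhibitors Cd59a, which blocks the membrane attack complex (3.49, SE 0.85), Cd55, which dissociates convertases (2.86, SE 0.80), and Serping1, the C1 inhibitor (2.08), rose. All 3 rises ended without WT replicate 3 and 4. Falls numbered 6 with quantile normalization and with the 75th percentile over detected probes, 7 without KO replicate 4 and 8 with a replicate block.

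Genes of disease-associated microglia, the state seen around plaques and damaged myelin, did not move as a block. Of 22 tested, 5 rose (22.7%) and 4 fell (18.2%), near the 21.2% and 14.5% of all genes with a symbol. The median was 0.36, but -0.45 without WT replicate 1 and 2 and -0.23 with quantile normalization, where 4 rose and 6 fell. Apoe, which carries lipids between brain cells, was 6.83, 6.85, 6.96 and 7.16 in WT and 8.71, 8.88, 8.35 and 8.19 in KO and rose by 1.58 (SE 0.25, adjusted p = 0.00104). Gpnmb, the galectin Lgals3 (1.94), Cd63 (1.17) and Ctsl (0.84) also rose. Trem2, the lipid receptor needed for this state, fell by 2.52 (SE 0.57), from 6.68 to 7.71 in WT to 3.07, 4.65, 5.19 and 5.60 in KO, and so did Itgax, Ccl6 (-2.36) and Timp2 (-1.20). Spp1 (3.31, SE 1.49), Igf1 (2.64, SE 1.07), Cst7 (-1.11) and Tyrobp (-1.20), the signalling partner of Trem2, did not pass. Without WT replicate 1 and 2, 3 rose, and without WT replicate 3 and 4, 1 fell.

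Receptors and adaptors of engulfment fell in 7 of 20 and rose in 2 (Mfge8, 1.68, and Dock1, 0.76), with a median of -0.70. Elmo1, which activates Rac at the phagocytic cup, was 0.96, 0.55, -0.11 and 0.02 in WT and at the floor on 3 KO arrays, with -3.15 on KO array 3 (-4.85, SE 0.49). Rac2, the Rac of blood cells, fell by 1.84 (SE 0.23), and both passed under every alternative. Mertk, a receptor for apoptotic cells, fell by 2.32 (SE 0.58) and its ligand Pros1 by 2.59 (SE 0.91, adjusted p = 0.0485), the last with overlapping replicates and lost under 7 alternatives. If WT replicate 3 and 4 was omitted, 4 of the 20 fell, and neither rise held with quantile normalization.

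**Figure D4:**
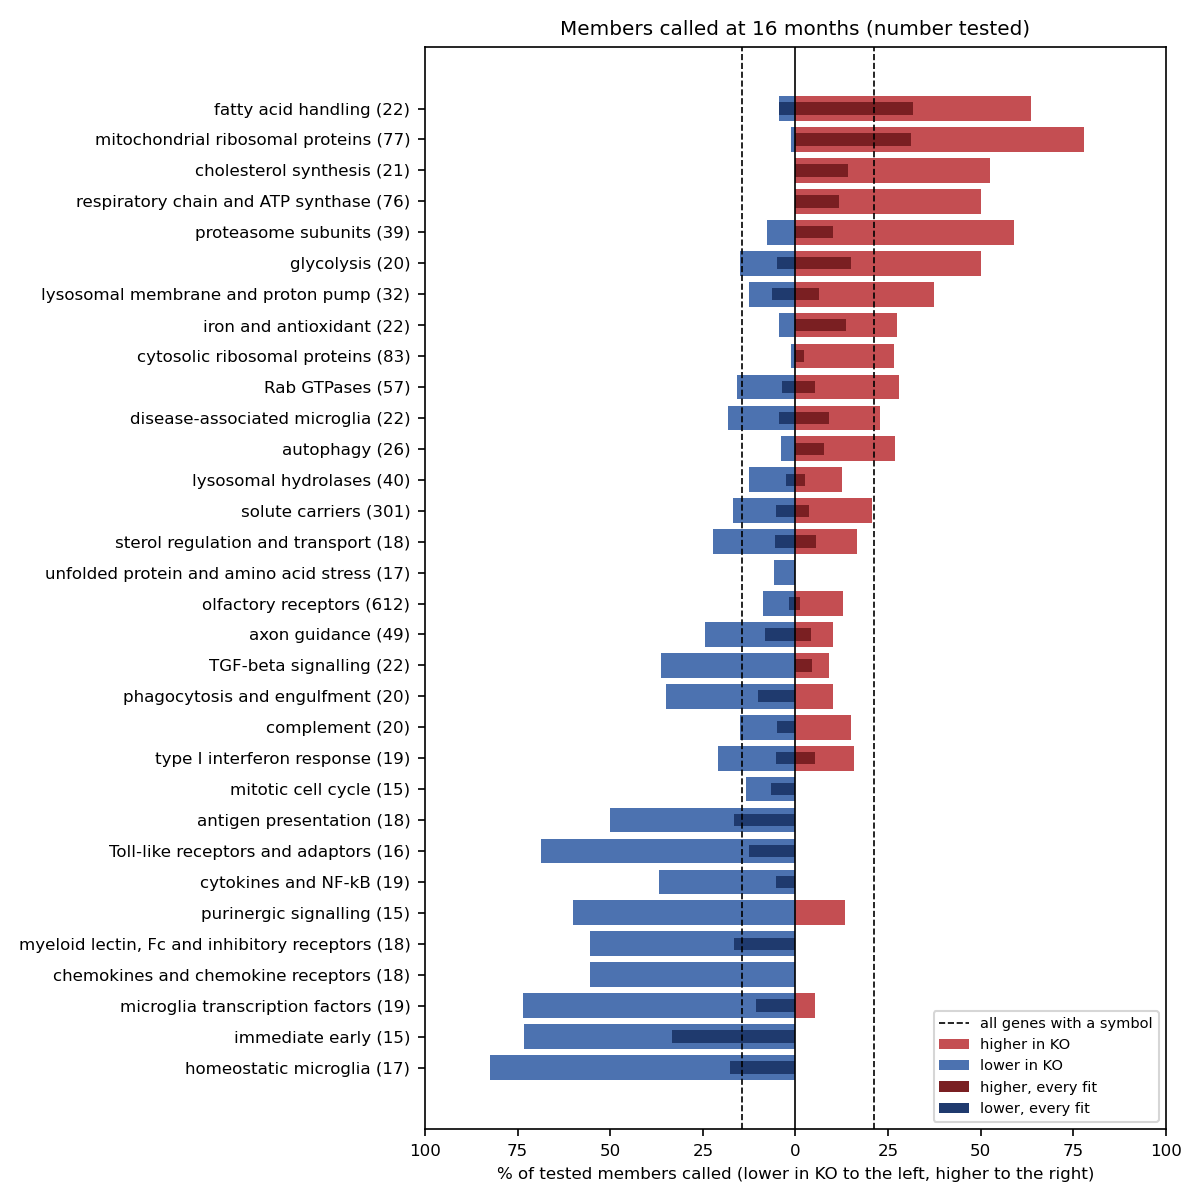
Share of the tested members of each gene list that passed at 16 months (adjusted p of 0.05), lower in KO to the left and higher to the right; narrow dark bars are members that passed under every alternative, and dashed lines mark all genes with a symbol (14.5% lower, 21.2% higher). Lists are ordered by their median difference, from homeostatic microglia genes (14 of 17 lower) at the bottom to fatty acid handling (14 of 22 higher) at the top.

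Enzymes of cholesterol synthesis were higher in KO: 11 of 21 rose and 0 fell, with a median of 1.60. Of these, 3 rose under every alternative: Fdft1, which makes squalene (3.72, SE 0.38), Idi1, an isoprenoid isomerase (2.49, SE 0.32), and Fdps, which makes farnesyl diphosphate (2.36, SE 0.41). Idi1 was 3.99, 3.81, 3.05 and 3.03 in WT and 6.53, 6.04, 5.90 and 5.35 in KO. A second probe of Fdft1, close to the floor, went the other way (-1.42, adjusted p = 0.00721), and so, without passing, did a second probe of Nsdhl (-2.21, against 4.56 on the brighter probe). Hmgcs1, which makes the precursor of mevalonate, rose by 2.02 and Sqle, the squalene epoxidase, by 3.03, whereas Lss (-2.12) did not pass. When WT replicate 3 and 4 was dropped, 5 of the 21 rose. On the same KO arrays the choroid plexus markers were higher too (median 2.16), and their part in the lipid genes was not tested.

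Sterol synthesis genes are switched on by SREBP2 through a sterol element in their promoters. The letters TCACNCCAC were searched on both strands of the RefSeq promoters of the GRCm38.p6 build, 250 bases before to 50 bases after each start, which were at hand for 14115 of the tested genes. They stood in 1 of 16 cholesterol synthesis promoters and in 1.4% of all tested genes. The match lay 137 bases before the start of Hmgcs1, and is shown because this gene was among those that rose; the window is chr13:119690189-119690248, plus strand, with the match in capitals.
Hmgcs1: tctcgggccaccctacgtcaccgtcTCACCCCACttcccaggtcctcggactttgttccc

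Genes of sterol sensing and export gave a mixed picture next to the synthesis enzymes. Of 18, 3 rose (Apoe, Insig2 with 1.74 and Npc2 with 1.54) and 4 fell. These shares were 16.7% and 22.2%, against 21.2% and 14.5% of all genes with a symbol. The falls were the exporters Abcg1 and Abca1 (-1.71), Mylip, a ubiquitin ligase (-2.16, SE 0.43), and Ch25h, which makes an oxysterol (-3.84, SE 1.01). Ch25h lost its call when only the 16-month arrays were fitted (adjusted p = 0.143), with a replicate block (adjusted p = 0.0652) and without WT replicate 1 and 2 (adjusted p = 0.137). Abcg1 was 3.47, 3.44, 3.91 and 4.00 in WT and 0.95, 1.25, 1.96 and 0.96 in KO and fell by 2.43 (SE 0.29) under every alternative. Abca1, Abcg1 and Mylip are known targets of the oxysterol receptor LXR. They were set together after their falls were seen. Apoe and Scd1, known targets of LXR as well, rose by 1.58 and 4.82. Further targets of LXR were not sought. The activity of LXR was not tested. Srebf2 (-1.11), Nr1h3 (-0.12) and Npc1 (0.87) did not pass.

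Genes of fatty acid handling were higher as well: 14 of 22 rose and 1 fell, with a median of 1.79, and 7 rose and 1 fell under every alternative. Scd1, the desaturase that makes oleate, was -0.85, -0.74, -1.35 and -1.27 in WT and 5.07, 2.82, 3.78 and 3.39 in KO (4.82, SE 0.55, adjusted p = 0.000219). Fabp5, a cytosolic fatty acid carrier, was 1.53, 1.54, 1.21 and 1.20 against 4.11, 5.31, 5.30 and 5.41 (3.66, SE 0.36), and the lipid sensor Pparg -2.94 to -2.15 against 0.73 to 2.08 (3.81, SE 0.56). No WT array reached the lowest KO array for any of these 3 genes. Enzymes of fatty acid burning rose as well, with Cpt1a, the gate of import into mitochondria, at 2.34 and Acadl at 2.04, and so did Plin2, a coat protein of lipid droplets (1.57). Ppard, the sister receptor of Pparg, was 0.25 to 1.81 in WT and -3.16 to -1.79 in KO and fell by 3.21 (SE 0.50). Lpl (-0.95), Cd36 (-0.91), Acly (-0.14), Fasn (2.02) and Elovl6 (2.35) did not pass.

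Enzymes of the lysosome, to which progranulin is carried, had calls in both directions. Of 40 hydrolases, 5 rose (12.5%) and 5 fell (12.5%), against 21.2% and 14.5% of all genes with a symbol. Their median was 0.24. The beta-galactosidase Glb1 was 2.20, 2.29, 2.99 and 3.00 in WT and 4.24, 4.11, 3.92 and 4.24 in KO and rose by 1.51 (SE 0.22). The alpha-galactosidase Gla, 6.15 to 6.43 in WT and 4.95 to 5.51 in KO, fell by 1.03 (SE 0.19). These 2 calls held under every alternative. Gm2a (1.91), Tpp1 (1.45), Fuca1 (1.31) and Ctsl rose, and Ctse (-2.30, SE 0.63), Arsa (-2.02, SE 0.39), Ctsh (-1.99) and Man2b1 (-1.40) fell. Cathepsins B (-0.40), D (0.52) and S (-0.43), the abundant cathepsins of microglia, did not pass. The balance depended on the scaling, with 2 rises and 13 falls under quantile normalization and 4 and 13 with the 75th percentile over detected probes; without WT replicate 1 and 2 it was 3 and 11, and without WT replicate 3 and 4 it was 11 and 4.

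The lysosomal membrane and its proton pump had 12 rises (37.5%) and 4 falls (12.5%) among 32, with a median of 0.89. Of all genes with a symbol, 21.2% rose and 14.5% fell. The largest rises called were of the V1-sector subunits Atp6v1b2 (3.18, SE 0.53) and Atp6v1h (3.05, SE 0.78), neither of which passed under every alternative. Atp6v1e1, of the same sector, was at 3.94, 4.02, 3.91 and 3.92 in WT and 6.77, 7.32, 6.63 and 6.29 in KO (2.81, SE 0.28), and Atp6v1a at 4.36 to 5.08 against 7.27 to 7.72 (2.79, SE 0.27). Atp6v0a1, a subunit of the membrane sector, fell by 1.77 (SE 0.28). Laptm5, a lysosomal membrane protein of blood cells, was 5.25, 5.25, 6.15 and 6.21 in WT and -0.99, -0.75, 1.38 and 1.72 in KO, a fall of 5.38 (SE 0.81). The calls of Atp6v1e1, Atp6v1a, Atp6v0a1 and Laptm5 held under every alternative. Sort1, which encodes sortilin, the receptor that takes progranulin into cells, fell by 1.86, and the calcium channel Mcoln1 by 0.70. Without WT replicate 1 and 2, 7 rose and 7 fell. The E-box CACGTG, the core of the element bound by TFEB, was found in the promoters of 34.4% of the hydrolases and 33.3% of the membrane and pump genes, against 10.1% of all tested genes.

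Autophagy genes rose in 7 of 26 (26.9%, near the 21.2% of all genes with a symbol) and fell in 1 (Atg7, -1.42). The median was 0.36, but 0.05 with the 75th percentile over detected probes and -0.01 without WT replicate 1 and 2. Gabarapl2, a ubiquitin-like protein of the autophagosome membrane, was 4.49, 4.55, 4.12 and 4.23 in WT and 7.09, 7.17, 6.82 and 6.48 in KO (2.55, SE 0.24, adjusted p = 0.000103). Atg10, an E2-like enzyme, rose by 2.04 (SE 0.27), also under every alternative. Map1lc3a rose by 2.24 (SE 0.52) and the receptor Tax1bp1 by 2.12 (SE 0.47), neither when only the 16-month arrays were fitted. Tfeb (-0.67), Sqstm1 (0.36) and Ulk1 (0.00) did not pass. Without WT replicate 1 and 2, 4 of the 26 rose.

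Genes for mitochondrial ribosomal proteins, which translate the mitochondrial genome, had the highest share of rises among the lists of function. Of 77 tested, 60 rose and 1 fell (Mrps18b, -0.74), with a median of 1.75, and 24 rose under every alternative. Mrpl42 was 2.76, 2.88, 2.13 and 2.12 in WT and 6.01, 6.39, 5.54 and 5.71 in KO and rose by 3.44 (SE 0.33, adjusted p = 0.000112). Mrpl28 was 0.68, 0.64, -0.21 and 0.13 against 4.45, 4.31, 3.41 and 3.48 and rose by 3.60 (SE 0.43). The groups stood far apart for both genes. The median level of the 77 genes was 3.19, 3.24, 2.89 and 2.88 on the WT arrays and 4.45, 5.43, 4.71 and 4.20 on the KO arrays, so that no KO array reached down to WT. Rises numbered 51 with quantile normalization, 53 with the 75th percentile over detected probes, 39 without WT replicate 3 and 4 and 25 when only the 16-month arrays were fitted. At 4 months the median difference of the same genes was 0.06.

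The promoters of the risen members were examined for a shared element. NRF-1, a factor of nuclear genes for mitochondria, binds GCGCA, any base, then GCGC, a motif chosen after the data were seen and searched on both strands. It was found in 13 of 68 promoters of this list (19.1%), in 17 of 65 of the respiratory chain list (26.2%) and in 8.6% of all tested genes, while 9 of the 52 risen members with a promoter held it (17.3%). Shown are 60-base windows upstream of the start of 3 members that rose, Mrpl32 by 2.09 (SE 0.21), Mrpl39 by 1.47 (SE 0.23) and Mrpl57 by 2.02 (SE 0.58), with the match in capitals. They lie at chr13:14613090-14613149 (minus strand), chr16:84735335-84735394 (minus strand) and chr14:57826157-57826216 (plus strand) of GRCm38.p6, from RefSeq.
Mrpl32: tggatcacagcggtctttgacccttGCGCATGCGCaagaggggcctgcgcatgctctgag
Mrpl39: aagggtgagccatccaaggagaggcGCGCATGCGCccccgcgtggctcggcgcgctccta
Mrpl57: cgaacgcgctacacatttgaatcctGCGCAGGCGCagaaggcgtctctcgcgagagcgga

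Subunits of the respiratory chain and ATP synthase rose in 38 of 76 and fell in 0, with a median of 1.49. Of these, 9 rose under every alternative. Ndufs8, an iron-sulfur subunit of complex I, was 2.51, 2.59, 2.34 and 2.40 in WT and 6.05, 6.49, 5.32 and 5.44 in KO (3.37, SE 0.38). Ndufs4, of the same complex, rose by 2.34 (SE 0.36), the succinate dehydrogenase subunits Sdhb by 1.94 and Sdha by 1.45, and the ATP synthase subunit Atp5c1 by 1.99. The other rises under every alternative were Ndufs1, Ndufa10, Sdhd and Uqcrfs1, at 1.90 to 2.07. With WT replicate 3 and 4 left out, 16 of the 76 rose; the list's median level was 6.02 and 5.94 on WT arrays 1 and 2 but 4.84 and 4.85 on WT arrays 3 and 4, and KO array 4 (5.67) overlapped the first pair. The choroid plexus markers were higher on the same KO arrays, and lower on WT arrays 3 and 4 than on 1 and 2; their part in this list was not tested.

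Glycolytic genes rose in 10 of 20 and fell in 3, with a median of 0.99. Pgk1, which makes ATP in the payoff phase, was 5.52, 5.58, 4.47 and 4.48 in WT and 7.98, 8.36, 7.58 and 7.36 in KO (2.81, SE 0.33). Tpi1 (2.49, SE 0.28) and the platelet-type phosphofructokinase Pfkp (3.11, SE 0.54) rose as well, all 3 under every alternative. Regulators of the path fell, with Pfkfb3, which makes its activator, at -3.36, hexokinase 2 (Hk2) at -2.98 and the lactate exporter Slc16a3 at -3.11 (SE 0.49). Slc16a3 went from 0.23, 0.21, 1.63 and 1.72 to -2.69, -2.77, -1.26 and -1.94. With quantile normalization 6 rose and 4 fell, and without WT replicate 3 and 4, 6 rose and 1 fell.

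Of the iron and antioxidant list, 6 of 22 genes rose (27.3%, near the 21.2% of all genes with a symbol) and 1 fell. The median was 0.81. Nqo1, a quinone reductase and target of NRF2, was 1.17, 1.32, -1.33 and -1.04 in WT and 4.68, 4.17, 3.58 and 3.75 in KO (4.01, SE 0.71). Catalase (Cat, 2.73, SE 0.45) and peroxiredoxin 1 (Prdx1, 2.22, SE 0.25) rose also under every alternative. Other targets of NRF2 did not pass, with Hmox1 at -0.05, Gclm at 0.12 and Txnrd1 at 0.99. Slc11a1, an iron transporter of phagosomes, fell by 2.41 (SE 0.59), and the ferritin chains Fth1 (0.79) and Ftl1 (0.74) did not pass.

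Proteasome subunits rose in 23 of 39 and fell in 3, with a median of 1.16. Psmd8, of the regulatory lid, was 2.29, 2.40, 2.55 and 2.50 in WT and 5.91, 5.70, 5.09 and 5.55 in KO (3.12, SE 0.22, adjusted p = 3.67e-05), and Psmb1, of the core, rose by 2.41 (SE 0.30). The falls were Psmb8 (-1.21) and Psmb9 (-1.81), catalytic chains of the immunoproteasome that also serve antigen presentation, and Psmb11, the chain of the thymus, which was not well above background on any KO array and was at least 4.08-fold lower. With quantile normalization 14 rose and 6 fell. Cytosolic ribosomal proteins rose in 22 of 83 and fell in 1 (Rps4l, -3.25), with a median of 0.66, but in 11 and 9 with quantile normalization, 9 and 1 without WT replicate 1 and 2, and 34 rose without KO replicate 4. Rps2 (2.75, SE 0.27) and Rps7 (1.38, SE 0.27) rose under every alternative. The share of the cytosolic list that rose, 26.5%, was near the 21.2% of all genes with a symbol. KO array 2 had the highest median of this list, 8.35, against 6.47 to 6.69 in WT and 6.53 to 6.86 on the other KO arrays.

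Unfolded protein and amino acid stress genes had 1 fall and 0 rises among 17: Atf4, the effector of the integrated stress response, was 6.32 to 7.19 in WT and 4.37 to 5.80 in KO (-1.51, SE 0.36), and a dimmer probe of it differed by 0.35. Of the stress list 5.88% fell. Mitotic genes had 2 falls (13.3%) and 0 rises among 15, against 14.5% and 21.2% of all genes with a symbol. Bub1, a checkpoint kinase, was not well above background on any KO array and was at least 14.7-fold lower (WT -2.04 to -0.07). Aurka differed by -2.31 (SE 0.79, adjusted p = 0.043), a call lost under 7 alternatives, quantile normalization and the fit of the 16-month arrays alone among them. Mki67 (-2.31) did not pass.

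Semaphorins, ephrins and their receptors have roles in cell contact as well as axon guidance. They fell in 12 of 49 and rose in 5, with a median of 0.00. These shares were 24.5% and 10.2%, against 14.5% and 21.2% of all genes with a symbol. Sema4d, 3.14, 3.17, 4.81 and 4.95 in WT and -3.58, -3.03, -0.53 and -2.19 in KO, and its receptor gene Plxnb1 (4.29, SE 0.63) went opposite ways. Epha4 and Plxnb1 rose and Sema4d, Plxna4 (-5.68), Nrp2 (-3.55) and Efnb2 (-3.16) fell under every alternative. The other rises were Efna5 (1.98), Sema3c (1.91) and Plxna1 (1.12), and with quantile normalization 9 rose.

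Of 57 Rab GTPases of vesicle traffic, 16 rose (28.1%) and 9 fell (15.8%), with a median of 0.42. Of all genes with a symbol, 21.2% rose and 14.5% fell. Rab2a, which acts between the endoplasmic reticulum and the Golgi, was 6.97, 6.15, 6.29 and 6.40 in KO; WT array 4, at 1.30, stood away from its partner array 3 (3.82) and from arrays 1 and 2 (3.80 and 3.77). It rose by 3.28 (SE 0.36). Rab3c, of regulated secretion, was 4.14, 4.06, 3.79 and 3.83 in WT and 0.60, 0.47, -0.62 and 0.76 in KO (-3.65, SE 0.33). Paralogs of early endosomes differed in direction, with Rab5a at 1.64, Rab5b at -2.20 and Rab5c at -1.77. If WT replicate 3 and 4 was omitted, 9 rose.

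Solute carriers, the largest family of membrane transporters, rose in 62 of 301 and fell in 51, with a median of 0.21, against 21.2% and 14.5% of all genes with a symbol. Slc17a9, a vesicular nucleotide transporter, was 1.11, 1.03, 2.17 and 2.19 in WT and -4.17, -2.91, -3.79 and -4.22 in KO (-5.40, SE 0.42), and Slc13a3, a dicarboxylate transporter, fell by 5.26 (SE 0.56). When WT replicate 3 and 4 was dropped, 33 rose. Olfactory receptors, whose median level was -4.64 in WT and -4.63 in KO, near the floor, rose in 78 and fell in 53 of 612 tested out of 1061 on the array, so 449 did not pass the filter. Olfr836, at 1.58, 1.12, -0.92 and -0.81 in WT and -4.94 to -4.54 in KO (-5.08, SE 0.49), and Olfr819 (-4.88, SE 0.67) fell under every alternative. Rises numbered 136 with quantile normalization and 26 without WT replicate 1 and 2, and falls numbered 9 when each of the 8 arrays had to be above background and 96 without WT replicate 3 and 4.

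Markers of other cells that a brain sort could hold were read next. Border macrophages, the macrophages of meninges and vessels, gave 0 calls among 8 markers; Pf4 was 4.50 to 5.22 in WT and 0.98, 4.70, 4.44 and 4.72 in KO, and Ms4a7 3.11 to 3.82 against 1.81, 3.90, 4.20 and 4.31. The median level of the 8 overlapped, at 1.64 to 3.10 in WT and 0.86 to 3.47 in KO. Neutrophil markers had 1 rise among 9 (11.1%, against 21.2% of all genes with a symbol). It was the elastase Elane (1.88, SE 0.37), with WT at -3.43 to -2.49 and KO at -1.35 to -0.82. S100a9 (-5.40, SE 2.99) and S100a8 (-5.05, SE 2.68) did not pass, and the summed level of the 9 markers, a log2 of their added signals, was 8.58, 8.48, 6.30 and 6.41 in WT and 7.97, -0.32, 7.76 and -0.62 in KO, with KO arrays 2 and 4 far below the others.

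Monocyte markers had 1 rise of 6, Vcan (1.02, SE 0.24), whose other probe differed by -1.80. The shares that rose were 16.7% of monocyte and 33.3% of T and NK cell markers, against 21.2% of all genes with a symbol. The T and NK cell markers Cd4 (1.17, SE 0.37) and Nkg7 (0.93, SE 0.27) passed among 6, at levels under -1 on all 8 arrays, and neither call held without WT replicate 1 and 2. Of 4 B cell markers, 25.0% rose and 25.0% fell. Cd79b fell by 3.06 (SE 0.52), and Pax5, not well above background on any WT array, was at least 1.81-fold higher. The globin Hba-a1, the only red blood cell marker tested, was -2.99 to -1.99 in WT and -0.43, 2.70, 2.04 and 3.54 in KO (4.42, SE 0.86).

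Astrocyte markers had 3 rises (27.3%) and 2 falls (18.2%) among 11, near the 21.2% and 14.5% of all genes with a symbol. Sox9, which the choroid plexus also expresses, was 2.49, 2.32, -0.73 and -0.72 in WT and 5.18, 5.12, 4.78 and 4.20 in KO (3.98, SE 0.97), and Aldh1l1 (2.63) and Aldoc (1.54) rose, while Slc4a4 (-3.79, SE 0.83) and Slc1a3 (-3.04) fell. The other 2 probes of Slc4a4, of like brightness, differed by 0.23 (adjusted p = 0.954) and -0.02 (adjusted p = 1). Gfap (0.87) and Aqp4 (-0.97) did not pass. Myelin genes had 1 rise (Mog, 0.99) and 4 falls among 9 (11.1% and 44.4%). The falls included Mag at -3.65 (SE 0.76), Ermn at -2.03, and Mobp at least 10.5-fold lower on 1 probe but 1.54 higher on another. With WT replicate 3 and 4 left out, 0 astrocyte markers rose and 1 myelin gene fell. Neuron markers gave Rbfox3 (-4.33, SE 0.47), Slc12a5 (-2.84, SE 0.75) and Map2 (1.80) among 11, so 9.09% rose and 18.2% fell.

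Endothelial markers gave Slco1a4 (3.62, SE 0.74), Itm2a (3.42), Esam (-3.81, SE 1.16) and Kdr (-1.10) among 10, and with a replicate block or without WT replicate 3 and 4 no endothelial marker fell. Of the endothelial markers 20.0% rose and 20.0% fell, near the 21.2% and 14.5% of all genes with a symbol. Pericyte markers gave Abcc9 (-3.28, SE 0.79) among 7, so 14.3% fell. None of 4 oligodendrocyte precursor markers passed, with Pdgfra at 2.41 (SE 1.07) and Cspg4 at 0.22. The ependymal gene Rsph1, of cilia, was 3.40, 3.41, 1.04 and 1.01 in WT and 4.51, 5.60, 4.84 and 3.79 in KO (2.47, SE 0.69) and was the only rise among 3. It had the same order of the 2 WT samples as the choroid plexus markers.

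The same genotype difference was measured at 4 months, on another slide and in other samples. There 8 of 31927 features passed (0.0251%), and 1920 had an unadjusted p under 0.05. The difference between the ages, tested as an interaction, passed for 4243 features (13.3%), 2178 more positive (6.82%) and 2065 more negative (6.47%) at 16 months. Of the 10958 features called at 16 months, 4186 passed it, and of the 2590 called under every alternative, 2266 did. Both sets were chosen by the 16-month difference, which is a term of the interaction, so higher shares among them were built in. The ages were on separate slides, and the effects of age and slide cannot be told apart. The homeostatic list had a median of 0.08 at 4 months against -3.29, with 9 of 17 passing the interaction, the immediate early list 0.11 against -3.28, with 8 of 15, and the mitochondrial ribosomal list 0.06 against 1.75, with 36 of 77.

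**Figure D5:**
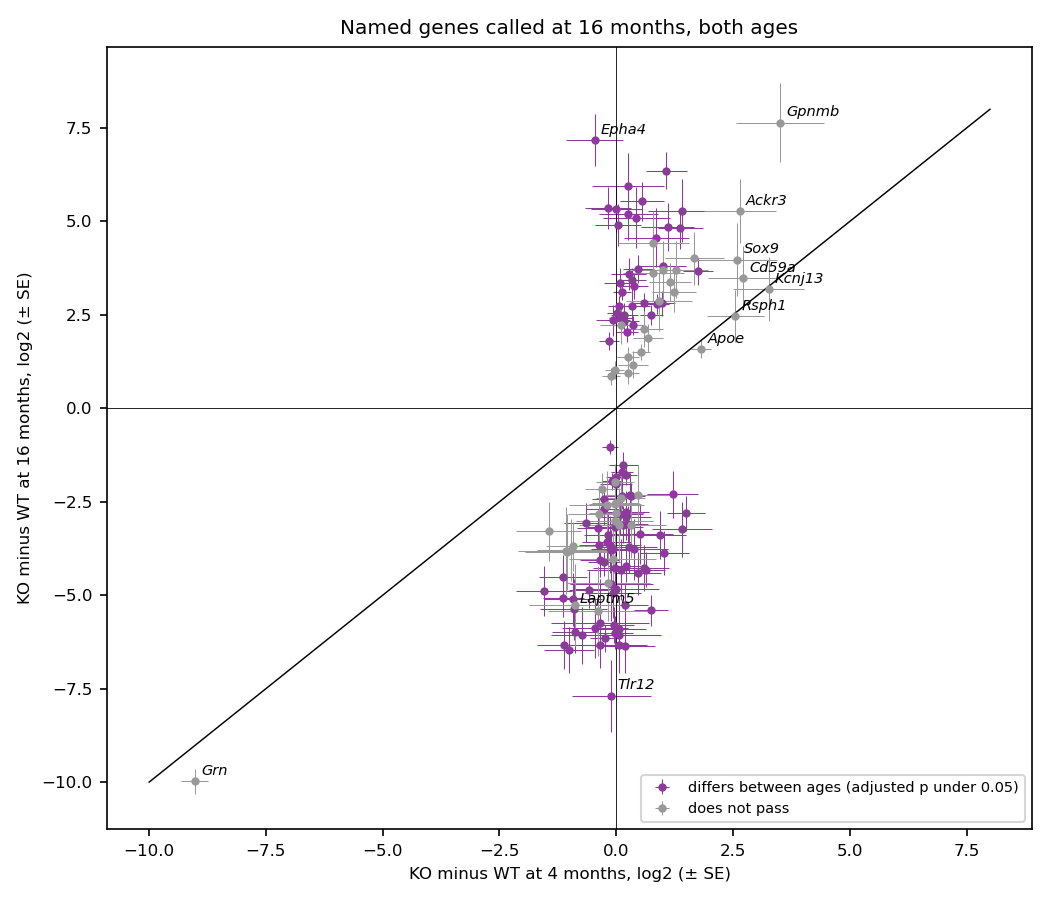
KO minus WT difference at 4 months (horizontal) and at 16 months (vertical) for the named genes that passed at 16 months, as log2 values with SE, and the line of equality. Purple points passed the test of the difference between ages; most genes lie near 0 at 4 months, while Grn, Apoe, Kcnj13 and Rsph1 lie close to the line.

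Some genes called at 16 months had a difference of like size at 4 months and did not pass the test between ages. Apoe passed at both ages, with 1.82 at 4 months (adjusted p = 0.0364) and 1.58 at 16 months, and a difference between ages of -0.24 (SE 0.33, adjusted p = 0.67). Lgals3, at 2.15 and 1.94, did not pass at 4 months (adjusted p = 0.232). The choroid plexus genes Kcnj13 (3.26 and 3.19), Folr1 (2.77 and 2.67) and F5 (2.66 and 2.60) and the ependymal Rsph1 (2.55 and 2.47) are further cases, none of which passed at 4 months (adjusted p from 0.318 to 0.398). The choroid plexus list had a median of 3.05 at 4 months against 2.16, with 0 of 12 passing the interaction. C3 differed by 1.64 at 4 months and by -0.98 at 16 months, and passed at neither age (adjusted p = 0.234 and 0.0724; difference between ages -2.62, SE 0.51, adjusted p = 0.0101). Itgax had 1.50 at 4 months, which did not pass (adjusted p = 0.423), and -2.81 at 16 months, and the difference between ages passed (adjusted p = 0.0031). Gpnmb differed by 3.51, which did not pass (adjusted p = 0.421), and 7.65, where the difference between ages of 4.13 (SE 1.42) did not pass (adjusted p = 0.0818).

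The genes called had other probes on the array that served as a check on single probes. Of 2182 other probes of called genes, 77.1% had the same sign and 3.0% passed with the opposite sign. For genes called under every alternative these shares were 88.3% and 1.3% of 460 probes. By kind of sequence, probes for RefSeq mRNAs rose in 21.3% and fell in 14.5%, probes for full-length cDNA clones rose in 7.05% and fell in 23.3%, and probes for intergenic or lincRNA regions rose in 18.7% and fell in 18.1%.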

How the data were processed

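RNA of sorted mouse microglia was measured on single-color Agilent arrays (design 028005, Feature Extraction 10.7.3.1 per the file headers). R 2.15.3 stands in the submitters' processing notes. The values used are the deposited processed signal intensities, which the scanner software had corrected for background per the file headers. Control spots were left out, and the 75th percentile of the other 59305 spots of each array was taken. Outlier spots were then left out unless a probe had no other. Spots of each of the 55681 probes were averaged and divided by that percentile. Values under 0.0325 times the percentile were set to that floor, and log2 was taken. Arrays limit the precision by their number.

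Probes well above background on at least 3 of the 15 microglia arrays were kept (45615), and the brightest probe stood for a gene. The accessions of 26582 probes were matched to 20145 RefSeq symbols. The fit (limma 3.58.1 in R 4.3.3) held 13 replicates in 4 groups, with contrasts for each age and their interaction and Benjamini-Hochberg adjustment. On simulated data of this comparison with 31927 features, it called 32 of 100 log2 changes of 2, 74 of 100 changes of 4 and 6 of 31727 unchanged features. Few features were changed in the simulation, whereas 34.3% passed in the data. The 6 calls therefore do not give the rate of wrong calls in the data. How far the simulated spread matched that between the arrays was not tested.

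Alternatives were quantile normalization, the 75th percentile over probes detected on all 15 arrays, normexp (offset 50, on median signals because the files used hold no mean signal), 2 filters on dim probes, the 16-month arrays alone, the mean of a gene's probes, a replicate block, and leaving out each replicate. Where a group was left with 1 sample, it was taken to vary like the other groups. Genes were named as the fixed names, the 14 largest rises and 14 largest falls that passed under every alternative, without overlap and with no opposing probe, and the leading members of each list. The members and lists were chosen with earlier results of these data known.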

Additional observations from a re-analysis of the deposited data

Results flagged for a closer look

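The KO minus WT difference was not the same at both ages for 104 of the 157 named genes, by the interaction test in limma at an adjusted p of 0.05. Among all features 13.3% passed. The named genes were chosen largely by their difference at 16 months, which is a term of this test. A higher share among them was therefore built in. The values that follow are the difference at 16 months minus that at 4 months, on the log2 scale. The ages were on separate slides, and age and slide cannot be told apart. Among the genes with the largest rises, this value was 7.63 for Epha4, 5.29 for Cdo1, 5.70 for Tcerg1l, 4.98 for Rassf9, 5.54 for Ddit4l, 5.33 for Itgb8, 3.87 for Cldn20, 4.96 for Lin7b, 4.67 for Cthrc1, 4.88 for Traf3ip2 and 3.74 for Pawr. Among the genes with the largest falls it was -7.58 for Tlr12, -5.45 for Clec5a, -6.54 for Sema4d, -5.99 for Mdfi, -5.20 for Cass4, -6.37 for Icosl, -5.90 for Apba1, -5.35 for Tnfrsf17, -5.98 for Soga1, -5.10 for Vmn2r65, -5.98 for Dennd1c, -5.42 for Gimap6 and -5.75 for Kcnq1ot1. For markers and identity factors of microglia it was -3.69 for Tmem119, -4.42 for Cx3cr1, -2.98 for Csf1r, -4.85 for Selplg, -1.83 for Siglech, -3.85 for Klf2, -3.34 for Cebpb and -4.84 for Ikzf1. In complement and its receptors it was -2.90 for C1qc, -2.62 for C3 and -4.31 for Itgax. Stimulus-response, cytokine and chemokine genes had -4.18 for Jun, -4.26 for Fosb, -4.86 for Zfp36, -4.42 for Btg2, -2.45 for Nfkbia, -5.41 for Il6, -3.97 for Nfkbie, -4.65 for Il1b, -3.87 for Ccrl2 and -3.13 for Ccl12. Receptors, antigen presentation and interferon genes had -3.68 for Unc93b1, -4.58 for Tlr6, -3.37 for Cd300lf, -2.66 for Clec4a1, -4.87 for Cd74, -3.69 for Ciita, -1.86 for H2-DMb1, -4.17 for Cd86, -2.42 for Isg15 and 1.95 for Bst2.

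Genes of purine sensing, TGF-beta and engulfment had -6.13 for Adora3, -3.36 for P2ry6, -3.21 for Nrros, -3.11 for Tgfbr1, -4.27 for Elmo1, -1.83 for Rac2 and -2.61 for Mertk. Lipid genes had 3.25 for Fdft1, 2.31 for Idi1, 2.43 for Fdps, 3.70 for Nsdhl, -2.16 for Abcg1, 2.81 for Pparg, 1.91 for Fabp5, -2.82 for Ppard and 3.44 for Scd1. Lysosomal and autophagy genes had -0.90 for Gla, -3.51 for Ctse, -2.01 for Arsa, -4.47 for Laptm5, 2.22 for Atp6v1e1, 1.91 for Atp6v1a, -1.97 for Atp6v0a1, 2.54 for Gabarapl2 and 1.81 for Atg10. Genes of glycolysis, antioxidant defence, stress and mitosis had -3.26 for Slc16a3, 1.84 for Pgk1, 1.74 for Tpi1, 2.40 for Cat, 1.86 for Prdx1, -1.66 for Atf4 and -4.91 for Bub1. Genes of ribosomes, the respiratory chain and the proteasome had 2.69 for Rps2, 3.33 for Mrpl28, 3.10 for Mrpl42, 3.29 for Ndufs8, 2.17 for Ndufs4, 3.00 for Psmd8 and 2.31 for Psmb1. Vesicle, transporter and chemoreceptor genes had -3.28 for Rab3c, 2.91 for Rab2a, -6.15 for Slc17a9, -5.44 for Slc13a3, -3.95 for Olfr836 and -3.33 for Olfr819. Among markers of other cells it was -2.41 for Cd79b, -3.52 for Mag, -4.33 for Mobp and -4.96 for Rbfox3.

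In 14 named genes 1 of the 4 KO replicates of 16 months stood away from the other 3 by Dixon's criterion, which chance meets in about 1 of 20 groups. That rate does not hold where the other 3 arrays tie at or near the floor, as they did for Apba1, Elmo1, Ctse and Olfr836. KO array 1 was apart for Clec5a (-1.60), Slc2a5 (-4.94, the floor), Fabp5 (4.11), Ppard (-3.16), Olfr836 (-4.54), Pf4 (0.98) and Ms4a7 (1.81). KO array 2 was apart for Icosl (-2.04) and Bst2 (5.85). KO array 3 was apart for Apba1 (-3.88), Elmo1 (-3.15) and Abcc9 (-2.42), and KO array 4 for Ctse (-4.78) and Esam (-0.81). These are levels on the scale of the array's 75th percentile.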

How the results depend on the processing

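When only the 16-month arrays were fitted, 1751 features were higher and 1674 lower, and 54 of the 157 named genes no longer passed. With a filter that asks for signal above background on each of the 8 arrays, 2827 were lower. Leaving out replicates gave 3852 to 7122 higher features, 3913 to 5140 lower ones and 3728 to 5643 with a difference between ages. The lowest count of higher features came without WT replicate 1 and 2. Without WT replicate 3 and 4, 33 named genes no longer passed, and without WT replicate 1 and 2, 13 did not. Vcan reversed to -0.39 (adjusted p = 0.676 in limma) when all probes of a gene were averaged; its 2 probes had opposite signs.

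With a replicate block, 4371 features were higher, 4068 lower and 1955 differed between ages, and 5 named genes no longer passed. Same-numbered WT and KO arrays of 16 months correlated in their deviations at 0.11 to 0.24, and others at -0.258 to 0.239. WT arrays 1 and 3 each correlated best with a KO array of another number. Only 2 WT samples stand behind the 4 numbers, so the numbers were not taken as pairs. The cause of these shifts was not tested, beyond the fewer samples or probes that a setting leaves. Signal near background limits what could be read for dim genes.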

Other observations

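Chemosensory receptors, which sense odorants and pheromones in the nose, were described only in part above. Of 162 vomeronasal receptors tested, 13 rose (8.02%), 6 fell (3.7%) and 1 fell under every alternative, Vmn2r65, against 21.2% and 14.5% higher and lower among all genes with a symbol. Of the 612 olfactory receptors, 12.7% rose and 8.66% fell; 8 rose (1.31%) and 11 fell (1.8%) under every alternative, against 5.2% and 3.29%. These 11 were Olfr11, Olfr1112, Olfr1196, Olfr1214, Olfr1362, Olfr1500, Olfr76, Olfr819, Olfr836, Olfr97 and Olfr998. In all 11, and in Vmn2r65, the WT sample of arrays 1 and 2 was higher than that of arrays 3 and 4 by more than 1 on the log2 scale. These genes were examined after their values were seen.

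The 2 WT samples were unequal among features that fell. Of the 1199 that fell under every alternative, 29.6% were higher by more than 1 (log2) in arrays 1 and 2 and 17.6% in arrays 3 and 4, against 18.2% and 17.9% of all features. Among those that fell, probes for intergenic or lincRNA regions split 110 to 15, and probes for RefSeq mRNAs split 119 to 146. No test was made of these splits.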
